A study of Mus musculus with 16 samples.

Results

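Fibroblasts of the nipple region were compared with those of the stroma around terminal end buds (TEBs, the bulbous tips of growing ducts) in 213 single cells from 4 nipple and 5 TEB fragments. Fibroblasts were chosen by their measured expression: a cell counted as one where the mean z-score of *Col1a1*, *Col3a1*, *Dcn* and *Pdgfra* was the highest among 6 marker lists, the others marking basal, ER+ luminal, ER− luminal, myeloid and endothelial cells. The rule found 254 fibroblasts among the 1317 cells that passed the study's quality limits, of 1419 deposited. Nipple fragments held 121 of them, TEB fragments 96 and duct fragments 37. Unique molecular identifier (UMI) counts were summed over the fibroblasts of each fragment with at least 5, and 1 TEB fragment, T43, with 4 fibroblasts stayed out of the tests. The sums compared held 28, 33, 35 and 25 cells in nipple fragments N21 to N24 and 21, 26, 24, 15 and 6 cells in TEB fragments T31, T32, T33, T34 and T42.

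Fibroblasts are the connective tissue cells of the mammary stroma. They lay down the collagens, proteoglycans and elastic fibres on which the epithelium rests, and they secrete Wnt, BMP and receptor tyrosine kinase ligands, with their inhibitors, that act on the epithelium. During puberty the ducts grow through the fat pad behind the TEBs, while at the nipple they open through a specialised skin with its own dermis.

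Each fragment was a single nipple or TEB dissected from mice aged 5 weeks on the C57BL/6 background. All fragments, per the study, came from *K14-Cre/R26-mTmG* animals, in which the *Krt14* promoter drives Cre in epithelial cells and switches a membrane reporter. The labels do not tie fragments to mice, so p-values measure only the spread between these fragments, which may be technical. Cells were freed with collagenase and TrypLE and sorted into plates by a gate not given in the sources used here, so the fibroblast share of a fragment can be set by that gate. The labels name no treatment, and the first digit of the fragment numbers, 2 in nipple and 3 or 4 in TEB, has no stated meaning and cannot be told apart from location.

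The fibroblast label was checked on genes outside the rule. *Col1a2*, the second chain of type I collagen, had 6516 UMIs per 1000000 (CPM) over the fibroblasts, 138 CPM over basal and 87.4 CPM over ER+ luminal cells. *Lum*, a small collagen-binding proteoglycan, had 2773 CPM against 60.1 CPM in basal cells. The endothelial class came nearest of the classes compared, with 2121 CPM of *Col1a2* and 626 CPM of *Lum*. Defining genes of other cells were low, with 2.71 CPM of *Ptprc* (491 in the myeloid class), 9.65 CPM of the pericyte gene *Rgs5* and 256 CPM of *Krt8* (5682 in ER+ luminal cells). All 4 rule markers had UMIs in 210 of the 254 cells and 3 of them in 43. The fibroblast nearest to the limit of the rule led the next class by 0.0946 z-score units and the nearest cell outside fell short by 0.0195, and 9 fibroblasts had a lead under 0.5 (6 nipple, 3 TEB).

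Fibroblast sums held 984568 to 1513801 UMIs in nipple and 297625 to 1044092 in TEB fragments. The median UMI count of a fibroblast was 31763 to 46633 in nipple and 20654 to 66797 in TEB fragments (two-sided exact permutation p = 1.0, with 0.0159 the smallest that this design allows). Fibroblasts made up 29.8 to 40.7% of the kept cells of nipple fragments (35.3% ± 4.78, SD, n = 4) and 8.96 to 30.6% of those of TEB fragments (22.3% ± 8.71, n = 5). RNA from other wells, read from luminal and myeloid markers, was estimated at 5.2 to 8.05% of a nipple and 3.11 to 8.28% of a TEB fibroblast sum. The 95 well barcodes were all used in more than 1 fragment, and 0 cell columns were identical.

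T42 stood apart. Its fibroblast sum had a mean correlation across genes of 0.651 with the other TEB sums and 0.670 with the nipple sums, where the other TEB sums had 0.738 to 0.766 within TEB and the nipple sums 0.844 to 0.862 within nipple. It also held 1709 CPM of *Acta2*, a smooth muscle and basal cell actin, against 23.1 to 387 CPM in the other TEB and 44.1 to 176 CPM in the nipple sums. *Acta2* is a basal marker of the rule, so its level was partly set by the choice of cells. Results that rest on T42 are given with and without it.

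Genes higher in nipple fibroblasts included *Mfap4*, *Penk*, *Mmp3*, *Bgn* and *Tbx3*, and genes higher in TEB fibroblasts included *Wnt2*, *Ptgis*, *Ebf2* and *Sox9*. Of 8029 genes tested, 255 (3.18%) passed an adjusted p of 0.05, 181 higher in nipple (2.25%) and 74 higher in TEB fibroblasts (0.922%). The test was the edgeR quasi-likelihood test over fragments with Benjamini-Hochberg adjustment, written below as edgeR adjusted p, and log2 differences are nipple minus TEB with their standard errors (SE). Among the 255, 4 belong to the marker lists of the rule and are described only. Groups did not overlap in 227 of the 255 genes, and in 633 of all tested genes (7.88%). Without T42 the same test called 526 of 7756 genes (6.78%), 288 higher in nipple (3.71%) and 238 higher in TEB (3.07%), and 248 of the 250 genes of the first set that could be tested again were among them. The median log2 difference over all genes was −0.01, the value beside which the medians of gene groups below are to be read. In sums of cells, fewer cells of a kind and less RNA per cell cannot be told apart.

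**Figure D1:**
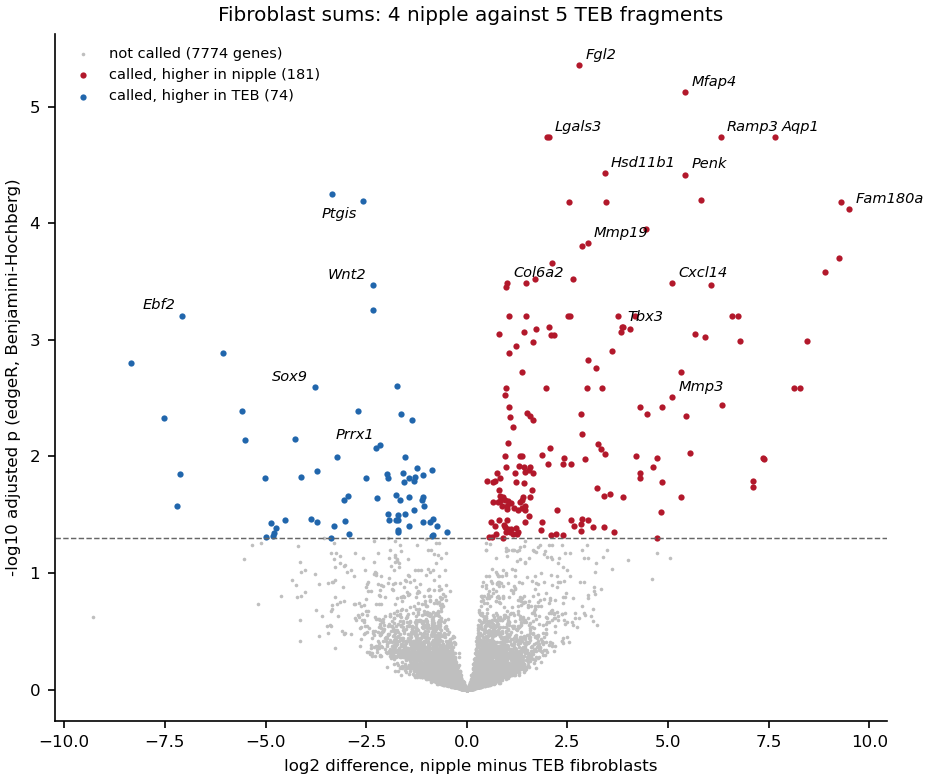
Each point is 1 of the 8029 genes tested in fibroblasts, with the log2 difference (nipple minus TEB) on the x axis and −log10 of the edgeR adjusted p on the y axis. Red marks the 181 genes called higher in nipple, blue the 74 higher in TEB and grey the rest, and the points far to the right include genes with 0 UMIs in TEB, whose fitted difference depends on the prior count.

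Among the collagens, *Col1a2* was higher in nipple fibroblasts. It had 8288, 9801, 8564 and 8321 CPM in the nipple fragments and 4124, 4945, 4504, 5507 and 3187 CPM in the TEB fragments. Every nipple value lay above every TEB value, with a log2 difference of 0.97 ± 0.13 (SE, edgeR adjusted p = 0.000353). The rule markers followed the same order as a description, *Col1a1* with 8651, 10387, 8988 and 8715 CPM against 3939, 4550, 4528, 5955 and 3065 CPM. For *Col3a1* (8166 to 9814 against 4127 to 8651 CPM) and *Dcn* (6257 to 8279 against 2661 to 7272 CPM) the groups overlapped, and *Pdgfra* had 371 to 581 against 220 to 294 CPM. Of the 9 fibrillar collagens listed, 7 were tested, and beside the rule marker *Col1a1* only *Col1a2* passed the threshold (median log2 0.36).

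Among the 14 tested of the 20 other collagens, 5 were called higher in nipple and 0 in TEB, with a median log2 of 1.05. *Col7a1*, the anchoring fibril collagen beneath skin epithelium, had 384, 279, 238 and 260 CPM in nipple against 0, 7.83, 8.43, 40.7 and 6.88 CPM in TEB fibroblasts. The groups were far apart, with T34 the highest TEB value, at a log2 difference of 4.85 ± 0.72 (edgeR adjusted p = 0.00376). *Col16a1*, which associates with fibrils and microfibrils, had 381, 470, 403 and 426 CPM in nipple and 77.9, 112, 174, 98.5 and 43.6 CPM in TEB fragments, without overlap (log2 2.04, edgeR adjusted p = 0.000776). The type VI beaded filament chains differed less, *Col6a1* with 2409 to 3019 against 1418 to 1647 CPM (log2 0.80, edgeR adjusted p = 0.000884) and *Col6a2* with 1946 to 2750 against 1066 to 1259 CPM (log2 1.0, edgeR adjusted p = 0.000327). *Col4a1*, a basement membrane collagen, had 908 to 1070 against 150 to 519 CPM (log2 1.5, edgeR adjusted p = 0.00424).

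Of 23 collagen processing genes tested, 2 were called, both higher in nipple fibroblasts (median log2 0.43). *Adamts2*, the procollagen I N-proteinase, had 452, 579, 543 and 583 CPM against 214, 241, 278, 197 and 66.5 CPM (log2 1.43, edgeR adjusted p = 0.0123, and 0.0503 without N22). *Crtap*, a partner of collagen prolyl 3-hydroxylase, differed by a log2 of 0.97 (edgeR adjusted p = 0.0123), a call lost without N22 or without N23, where the adjusted p reached 0.0669.

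Small leucine-rich proteoglycans bind collagen fibrils and growth factors, and 1 of 9 tested was called. *Bgn*, biglycan, had 1331, 1032, 1195 and 1241 CPM in nipple fibroblasts and 66.4, 95, 109, 309 and 84.9 CPM in TEB fibroblasts. T34 was the highest TEB fragment and still lay below all nipple fragments, and the log2 difference was 3.22 ± 0.41 (edgeR adjusted p = 0.00175; chromosome X, 73483602 to 73495933 on GRCm38). *Lum* was not called (log2 0.71, edgeR adjusted p = 0.252). Without T42, *Aspn*, *Prelp* and *Ogn* were called higher in TEB. *Aspn*, asporin, had 200, 178, 132 and 215 CPM in nipple and 848, 938, 568, 448 and 20.6 CPM in TEB fragments, so that T42 alone lay below the nipple values. Its edgeR adjusted p was 0.422 with T42 and 2.48e-05 without it.

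Elastic fibre and microfibril genes went in both directions, 4 of 17 tested higher in nipple and 2 higher in TEB fibroblasts (median log2 0.50). *Mfap4*, a microfibril glycoprotein that binds elastin, had 583, 349, 482 and 466 CPM in nipple fragments and 7.70, 6.86, 3.16, 23.8 and 22.9 CPM in TEB fragments. That is 470 ± 95.8 (SD, n = 4) against 12.9 ± 9.71 CPM (n = 5), with no overlap and a log2 difference of 5.43 ± 0.44 (edgeR adjusted p = 7.52e-06; chromosome 11, 61485431 to 61488900). *Ltbp1*, which tethers latent TGF-beta to the matrix, had 328 to 489 against 48.2 to 125 CPM (log2 2.12, edgeR adjusted p = 0.00022), and *Fbln1*, fibulin 1, had 194 to 374 against 29.8 to 109 CPM (log2 2.09, edgeR adjusted p = 0.00091). *Fbln7* had 94.9, 165, 129 and 75.7 CPM in nipple and 0, 0, 12.7, 13.6 and 0 CPM in TEB fragments (log2 4.62, edgeR adjusted p = 0.0123).

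*Emilin2*, an elastin-interface protein, was higher in TEB fibroblasts with 316 to 482 CPM in T31 to T34 and 204 CPM in T42, against 149 to 204 CPM in nipple (log2 −1.10, edgeR adjusted p = 0.0224). *Efemp1*, fibulin 3, had 649 to 1028 CPM in TEB and 331 to 693 CPM in nipple fragments, which overlapped (log2 −0.85, edgeR adjusted p = 0.0476). Neither call was stable, since *Emilin2* lost it without any of N21, N22, N23, T31 and T32 (adjusted p up to 0.116) and *Efemp1* without any of N21, N22, N23, T31, T32, T33 and T34 (up to 0.213). Without T42 the fibrillin gene *Fbn1* (1111 to 1554 CPM in T31 to T34, 514 to 695 CPM in nipple) and its partner *Mfap5* (2083 to 2727 against 1099 to 1498 CPM) were called higher in TEB as well, with edgeR adjusted p-values of 0.000118 and 0.00024 against 0.421 and 0.13 with it.

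**Figure D2:**
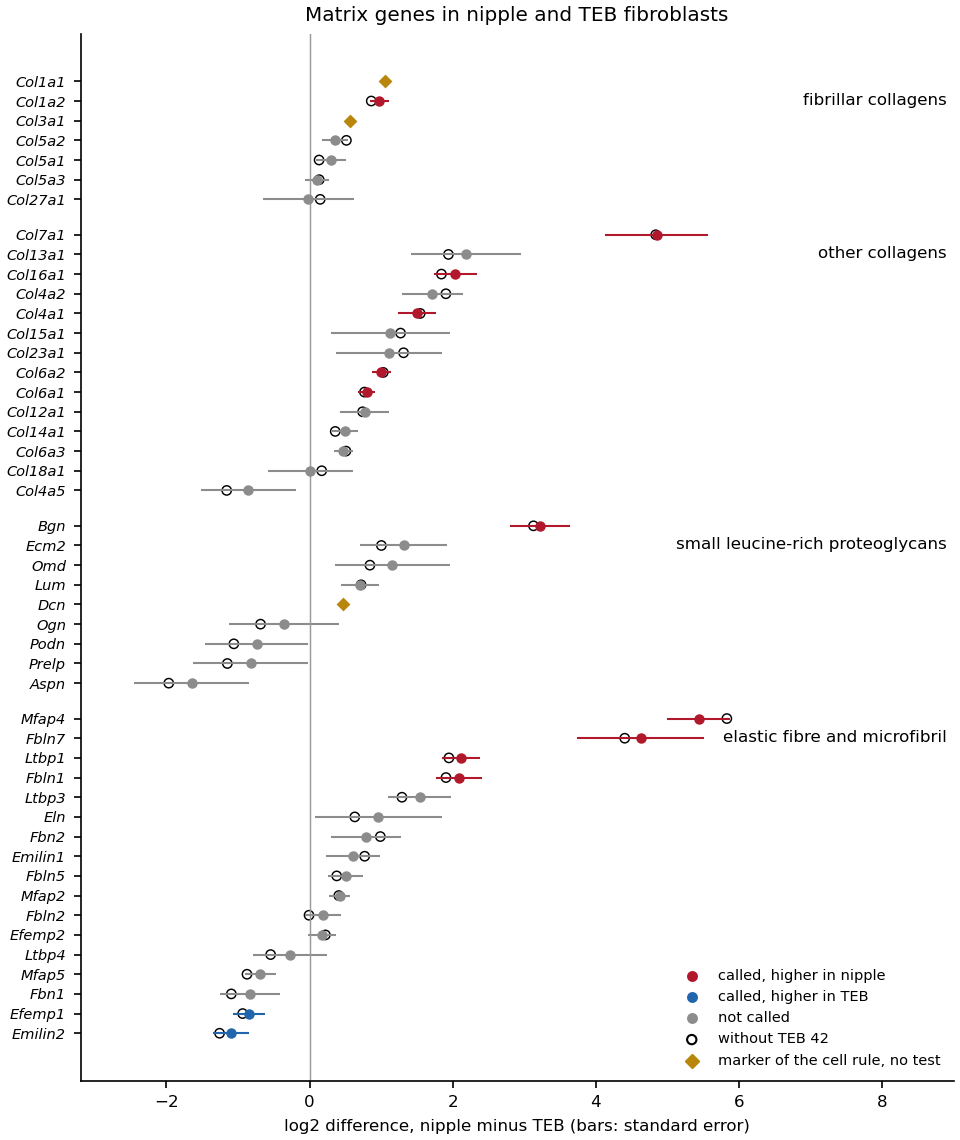
The x axis gives the log2 difference (nipple minus TEB) of each tested matrix gene in fibroblasts, with bars of 1 SE, red for genes called higher in nipple, blue for genes called higher in TEB and grey for genes not called; open circles leave out T42, and gold diamonds mark *Col1a1*, *Col3a1* and *Dcn*, which chose the cells. Collagens lie mostly right of 0, *Bgn*, *Mfap4* and *Fbln7* far right, and *Aspn*, *Prelp*, *Fbn1* and *Mfap5* left of 0 and further left without T42.

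Among proteins that modify or decorate the matrix, *Spon1*, a secreted F-spondin, had 969, 608, 636 and 480 CPM in nipple and 49.1, 83.2, 65.4, 126 and 11.5 CPM in TEB fibroblasts (log2 3.35, edgeR adjusted p = 0.00259), the 1 called of 19 matricellular genes tested. *Mmp3*, stromelysin 1, which cleaves proteoglycans, laminin and fibronectin, had 1517, 1889, 2373 and 1813 CPM in nipple against 19.2, 74.4, 13.7, 98.5 and 84.9 CPM in TEB fragments. The groups were far apart, T42 included (log2 5.10 ± 0.61, edgeR adjusted p = 0.00311; chromosome 9, 7445822 to 7455975). *Mmp19* had 292 to 325 against 12.5 to 75.7 CPM (log2 3.00 ± 0.37, edgeR adjusted p = 0.000149). These were the 2 called, both higher in nipple, of 15 metalloproteinases and TIMPs tested (median log2 0.74). *Mmp2*, gelatinase A, had 1606 to 1847 against 411 to 1294 CPM and was called without T42 only (edgeR adjusted p = 0.0052, and 0.119 with it).

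None of 11 laminin and nidogen genes and none of 6 hyaluronan and versican genes was called by edgeR. At an unadjusted p under 0.05, 1 laminin list gene was higher in nipple and 3 in TEB, and 1 hyaluronan list gene was higher in TEB, while DESeq2 called 1 laminin list gene, higher in TEB, and 0 of the hyaluronan list. *Hspg2*, perlecan, had 321 to 379 against 165 to 275 CPM (edgeR adjusted p = 0.123). *Vcan*, the proteoglycan versican, had 133 to 215 against 115 to 443 CPM (edgeR adjusted p = 0.216). *Has1*, a hyaluronan synthase, had 173 to 342 against 608, 401, 609, 482 and 108 CPM (0.421, and 0.00565 without T42).

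*Wnt2*, a ligand, had 36.8, 33, 20.5 and 30.8 CPM in nipple fibroblasts and 125, 177, 152, 166 and 145 CPM in TEB fibroblasts. T42 sat within the other TEB fragments here, and the groups did not overlap (log2 −2.34 ± 0.31, edgeR adjusted p = 0.000337; chromosome 6, 17988940 to 18030585). *Sfrp1*, a secreted inhibitor that binds Wnt ligands, went the other way with 489, 438, 451 and 459 CPM in nipple against 20.2, 84.2, 112, 109 and 84.9 CPM in TEB (log2 2.51, edgeR adjusted p = 0.000629). These were the only called genes of the 15 tested in the Wnt list (median log2 −0.32). *Sfrp2* was not called (213 to 476 against 0 to 323 CPM, edgeR adjusted p = 0.714), and *Wnt5a* had 3.30 to 23.4 against 6.33 to 13.6 CPM.

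In the BMP and TGF-beta list 3 of 19 tested genes were called, 2 higher in nipple and 1 higher in TEB. *Chrdl1*, an extracellular BMP antagonist, had 0, 1.10, 4.24 and 8.41 CPM in nipple and 133, 65.6, 83.3, 50.9 and 13.8 CPM in TEB (log2 −4.27 ± 0.82, edgeR adjusted p = 0.00711), with T42 the lowest TEB value and above all nipple values. *Gdf10*, a BMP family ligand, had 65.9, 84.8, 51.6 and 126 CPM against 4.81, 13.7, 4.22, 20.4 and 0 CPM (log2 3.32, edgeR adjusted p = 0.00872, and 0.0526 without N24).

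Growth factors acting on epithelium or vessels had 2 calls of 17 tested (median log2 0.74), and neither was stable. *Ptn*, pleiotrophin, had 236, 313, 335 and 330 CPM in nipple and 40.4, 10.8, 129, 13.6 and 34.4 CPM in TEB fibroblasts (log2 2.67, edgeR adjusted p = 0.0395); the call was lost in 7 of 9 fits that left out 1 fragment, any nipple fragment or T31, T34 or T42 (adjusted p up to 0.104). Of its 194 TEB UMIs, 141 were expected from other wells. *Vegfa* had 249 to 465 against 80.3 to 296 CPM, with overlap (log2 1.24, edgeR adjusted p = 0.0466), and lost its call without any nipple fragment or T31, T33 or T34 (up to 0.182). *Hgf*, the ligand of Met, had 24.2, 23.1, 29.7 and 56.1 CPM in nipple, 0 CPM in T31 to T34 and 32.1 CPM in T42, so that its edgeR adjusted p was 0.392 with T42 and 0.000871 without. *Fgf18* had 7.75, 9.91, 10.6 and 10.3 CPM in nipple and 95.3, 108, 55.9, 71.3 and 0 CPM in TEB (0.0668, and 0.000249 without T42). *Igf1* (204 to 433 against 143 to 230 CPM, edgeR adjusted p = 0.424) and *Fgf7* (61.7 to 101 against 0 to 63.7 CPM, 0.252) were not called.

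None of 7 tested IGF axis genes was called by edgeR, where 1 in each direction had an unadjusted p under 0.05 and DESeq2 called 1 in each. *Igfbp5*, which binds and holds IGFs in the matrix, had 11.6, 17.6, 48.8 and 77.6 CPM in nipple and 650, 535, 414, 397 and 4.59 CPM in TEB fibroblasts. Only T42 fell among the nipple values (log2 −3.36 ± 1.09, edgeR adjusted p = 0.206, and −3.68 with 0.00229 without T42). *Igfbp7* had 1430 to 2135 CPM in nipple against 64.5 to 672 CPM in TEB, without overlap (edgeR adjusted p = 0.147).

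Beside the rule marker *Pdgfra*, 2 of 20 tested receptors were called, both higher in nipple (median log2 −0.05). *Egfr*, through which stromal cells answer EGF family ligands, had 420, 499, 484 and 398 CPM against 220, 136, 202, 204 and 264 CPM (log2 1.14, edgeR adjusted p = 0.00564). *Lepr*, the leptin receptor, had 62, 27.5, 14.9 and 50.5 CPM in nipple and 0 UMIs in all TEB fragments, at least 43-fold higher against a floor of 3 UMIs over the TEB sums (edgeR adjusted p = 0.00258). The groups overlapped in *Esr1*, the oestrogen receptor, with 21.2 to 65.0 against 10.2 to 98.1 CPM. *Esr1* is an ER+ luminal marker of the rule, which used 4 of the 33 receptors listed, so their levels were partly set by the choice of cells.

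Transcription factors that mark body position or skin territory were among the calls, 3 of 21 tested higher in nipple and 2 higher in TEB (median log2 0.36). *Tbx3*, a T-box factor needed for mammary bud formation, had 320, 156, 266 and 361 CPM in nipple and 1.92, 25.5, 13.7, 23.8 and 36.7 CPM in TEB fibroblasts. The lowest nipple fragment was above the highest TEB fragment, T42 (log2 3.85 ± 0.53, edgeR adjusted p = 0.000784; chromosome 5, 119670669 to 119684724). *Irx3* had 62.9, 45.2, 19.8 and 28.0 CPM against 2.89 CPM in T31 and 0 in the other 4 TEB fragments, a ratio of pooled rates of 43 (exact 95% interval 14.5 to 211, counting error only; edgeR adjusted p = 0.00452). *Hoxb9* had 13.1 to 25.2 CPM in nipple and 0 UMIs in TEB, at least 21.2-fold higher (edgeR adjusted p = 0.0163, lost without N21, N22 or N23, up to 0.073). *Prrx1*, a mesenchymal homeobox factor, was higher in TEB with 361, 228, 189, 197 and 223 CPM against 31, 17.6, 90.5 and 74.8 CPM (log2 −2.15, edgeR adjusted p = 0.00799). *Foxp1* had 78.0 to 142 CPM in TEB and 12.6 to 49.5 CPM in nipple (log2 −1.97, edgeR adjusted p = 0.0141, lost without N21 or N23, up to 0.0727).

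Genes known from dermal fibroblasts and hair follicle dermal papilla had 4 calls higher in nipple and 1 higher in TEB of 16 tested (median log2 0.80). *Cd9*, a tetraspanin, had 880, 961, 840 and 924 CPM in nipple and 178, 159, 358, 244 and 424 CPM in TEB (log2 1.73, edgeR adjusted p = 0.000808). Of its 944 TEB UMIs, 419 were expected from other wells, and of its 3959 nipple UMIs, 549. *Runx1* had 105, 80.4, 126 and 66.4 CPM against 0.962, 14.7, 6.33, 10.2 and 6.88 CPM (log2 3.61, edgeR adjusted p = 0.00125). For *Runx1* other wells would give 25.6 of 28 TEB and 59.6 of 430 nipple UMIs. *Dlk1*, an inhibitor of adipocyte formation and a gene of the deep dermis, had 14.5, 90.3, 60.1 and 86.0 CPM in nipple and 1.96 CPM in T32 alone, a rate ratio of 108 (29.6 to 895, counting error only; edgeR adjusted p = 0.000619). *Lrig1*, a gene of the upper dermis in development, differed by a log2 of 2.23 (39.3 to 79.3 CPM in N22 to N24, 31 in N21, against 7.70 to 16.1 CPM; edgeR adjusted p = 0.0286, lost without N22, N23, T31, T32 or T33, up to 0.139). *Crabp1*, a retinoic acid binding protein of dermal cells, had 1158 to 1560 CPM in nipple and 0, 89.1, 341, 241 and 649 CPM in TEB, without overlap and not called (log2 2.39, edgeR adjusted p = 0.40). *En1*, a homeobox gene of some dermal fibroblast lineages, was the 1 gene of this list higher in TEB, with 6.74, 19.6, 60.1, 17.0 and 9.18 CPM against 0, 0, 0 and 2.80 CPM in nipple (rate ratio 39.4, 13.1 to 194, counting error only; edgeR adjusted p = 0.0454, lost without N21, N22 or N23, up to 0.164, and not tested without T42).

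Adipocyte and preadipocyte genes had 2 calls higher in nipple, *Dlk1* and *Cebpb*, and 1 higher in TEB, *Ebf2*, of 10 tested (median log2 0.22). *Cebpb*, an early factor of adipogenesis that is also induced by cytokines, had 692, 891, 771 and 457 CPM against 179, 348, 159, 170 and 259 CPM (log2 1.65, edgeR adjusted p = 0.00104). *Ebf2*, a factor of committed fat precursors, had 1.94, 0, 0 and 0 CPM in nipple and 146, 88.1, 67.5, 91.7 and 6.88 CPM in TEB fibroblasts. T42 held far less than the other TEB fragments and more than any nipple fragment (log2 −7.08 ± 1.01, edgeR adjusted p = 0.000619; chromosome 14, 67233292 to 67430918).

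The largest differences toward nipple, among called genes with at least 50 CPM and no overlap, were of genes listed at 0 or near 0 UMIs in TEB. *Fam180a*, a gene of little known function, had 136, 91.4, 120 and 49.5 CPM in the nipple fragments and 0 UMIs in all 5 TEB fragments, at least 117-fold higher (edgeR adjusted p = 7.53e-05; chromosome 6, 35312668 to 35326141). *Prkcb*, a protein kinase C, had 90.1, 84.8, 78.5 and 93.5 CPM against 0 UMIs, at least 99.9-fold higher (6.6e-05). *Rxfp2*, a receptor of the relaxin family, had 53.3, 58.4, 71.4 and 150.5 CPM against 0 UMIs, at least 97.1-fold higher (0.000197), and *Tnfrsf19*, a TNF receptor family member of skin appendages, 44.9 to 89.2 CPM against 0 UMIs, at least 75.0-fold higher (0.000261). *Aqp1*, a water channel, had 341, 99.1, 207 and 102 CPM in nipple and 2.94 CPM in T32 alone, a rate ratio of 221 (75.5 to 1076, counting error only; edgeR adjusted p = 1.83e-05).

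*Ramp3*, which pairs with calcitonin-like receptors to bind adrenomedullin, had 349, 144, 310 and 310 CPM in nipple and 6.74, 0, 5.27, 3.40 and 0 CPM in TEB fibroblasts (log2 6.31 ± 0.57, edgeR adjusted p = 1.83e-05; chromosome 11, 6658521 to 6677475). All nipple fragments exceeded all TEB fragments by more than an order of magnitude. *Gdnf*, a neurotrophic ligand of Ret, had 136, 36.3, 35.4 and 70.1 CPM in nipple and 3.85 CPM in T31 alone (log2 5.91, edgeR adjusted p = 0.000954). *C1qtnf3*, a secreted C1q and TNF related protein, had 44.1 to 123 CPM in nipple and 4.81 CPM in T31 alone (log2 6.07, 0.000337). *Ifitm1*, an interferon-induced membrane protein, had 104 to 254 against 0 to 6.86 CPM (log2 5.82, 6.36e-05), and *G0s2*, an inhibitor of fat breakdown, 30.8 to 203 against 0 to 4.22 CPM (log2 5.68, 0.000884).

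Toward TEB, several of the genes with the largest differences had their lowest TEB value in T42. *Sox9*, an HMG box factor of cartilage and of many epithelia, had 1.94, 12.1, 6.36 and 3.74 CPM in nipple and 145, 77.4, 52.7, 119 and 25.2 CPM in TEB fibroblasts (log2 −3.78 ± 0.64, edgeR adjusted p = 0.00255). RNA from other wells would give 45.2 UMIs in the nipple sums, and 26 were found. *Ptgis*, prostacyclin synthase, had 62.9, 70.5, 55.2 and 33.6 CPM in nipple and 255, 309, 298, 319 and 475 CPM in TEB. Here T42 was the highest of all fragments (log2 −2.57 ± 0.29, edgeR adjusted p = 6.45e-05; chromosome 2, 167191805 to 167240604).

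*Arhgef28*, a guanine nucleotide exchange factor, had 0 to 2.20 CPM in nipple and 54.8, 108, 34.8, 57.7 and 2.29 CPM in TEB fibroblasts (log2 −5.59, edgeR adjusted p = 0.00405). *Nptx2*, a secreted pentraxin, had 1.87 to 26.4 against 44.3 to 166 CPM (log2 −3.23, 0.0102), and *Slco3a1*, an organic anion transporter, had 11.3 to 37.4 against 64.5 to 187 CPM (log2 −2.70, 0.00405). The calls of 3 more genes were lost when single fragments were left out. *Gap43*, a growth cone protein, had 0 to 14.1 against 25.2 to 117 CPM (log2 −3.86, edgeR adjusted p = 0.0344) and lost it without N21, N22, N24, T31, T32 or T34 (up to 0.131). *Ssbp4* had 1.94 to 11 against 22.1 to 94.1 CPM (log2 −3.05, 0.0238) and lost it without N21, N23, N24 or T34 (up to 0.0826). *Prss23*, a secreted serine protease, had 37.5 to 133 against 158 to 768 CPM (log2 −2.50, 0.0153) and lost it without N21 or N22 (up to 0.0753).

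Some abundant genes had smaller but tighter differences and are named because of their small p. *Fgl2*, a secreted fibrinogen-like protein, had 2168, 1881, 2623 and 2145 CPM in nipple and 438, 262, 342, 373 and 181 CPM in TEB fibroblasts, at the smallest adjusted p of all genes (log2 2.79 ± 0.21, edgeR adjusted p = 4.39e-06; chromosome 5, 21372642 to 21378374). *Lgals3*, galectin 3, which binds glycans of the matrix and cell surface, had 1290, 1340, 1402 and 1337 CPM (1342 ± 46.1, SD, n = 4) against 263, 228, 305, 418 and 431 CPM (329 ± 91.5, n = 5). Nipple fragments were nearly equal and all above the TEB fragments (log2 2.04 ± 0.19, edgeR adjusted p = 1.83e-05; chromosome 14, 47367751 to 47386160). Of its 1106 TEB UMIs, 340 were expected from other wells, and of its 5963 nipple UMIs, 530. *Lgals3* was the only call among 19 annexins, S100 proteins and galectins (median log2 0.02). *Nnmt*, a nicotinamide methyltransferase, had 599 to 858 against 140 to 204 CPM (log2 1.99, edgeR adjusted p = 1.83e-05).

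**Figure D3:**
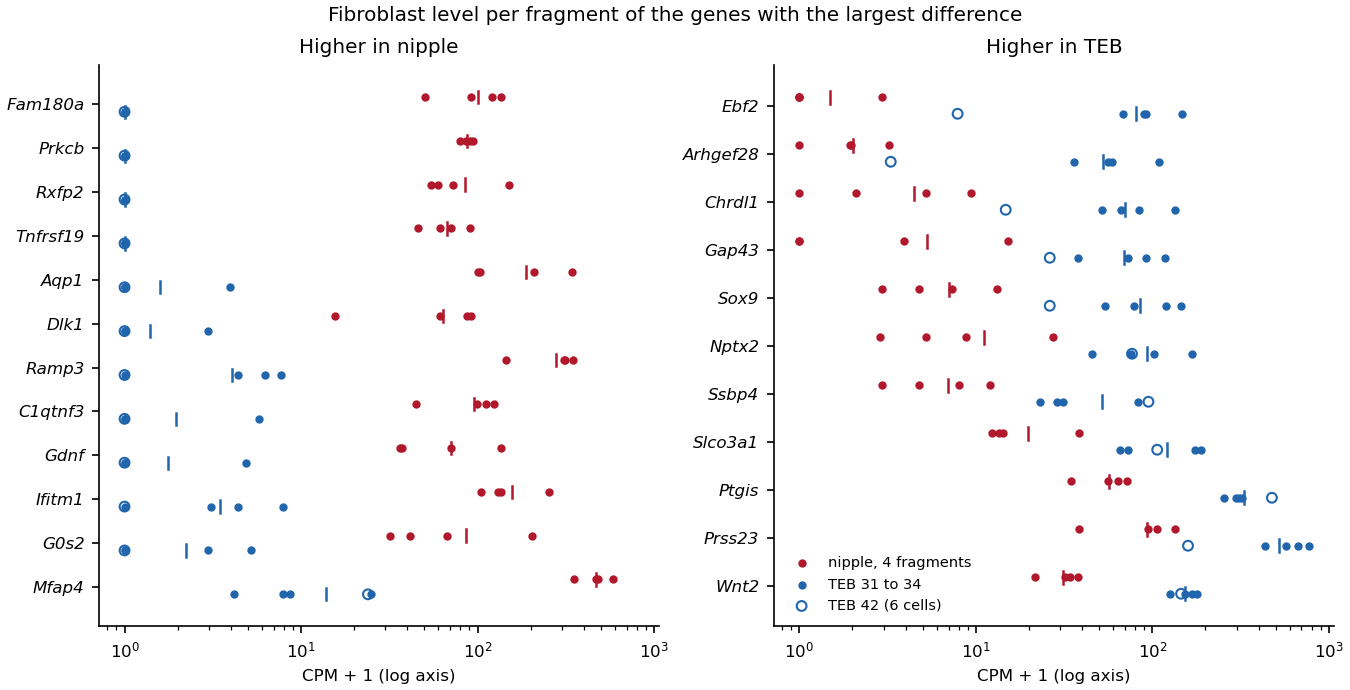
Of the genes of largest difference, 23 are drawn in rows, 12 higher in nipple and 11 higher in TEB, with CPM + 1 on a log x axis, a dot for each of the 4 nipple (red) and 5 TEB (blue) fibroblast sums, a vertical tick for each group mean and an open circle for T42. For genes higher in nipple the TEB dots lie at or near 0 CPM, and for 6 of the 11 genes higher in TEB the T42 circle is the TEB value nearest to the nipple dots, while for *Ptgis* and *Ssbp4* it is the farthest.

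Mouse fibroblasts of many tissues carry either a *Pi16* and *Dpp4* program, found around vessels and in interstitial sheaths, or a *Col15a1* program, found within the tissue and near basement membranes. A list of 20 genes was taken for each, and the members were chosen with earlier results of these data known. *Penk*, a proenkephalin gene, had 798, 1193, 892 and 998 CPM in nipple and 21.2, 33.3, 16.9, 40.7 and 2.29 CPM in TEB fibroblasts. All nipple fragments were at least an order of magnitude above all TEB fragments, with 970 ± 169 (SD, n = 4) against 22.9 ± 14.9 CPM (n = 5; log2 5.42 ± 0.44, edgeR adjusted p = 3.83e-05; chromosome 4, 4133531 to 4138819). *Cxcl14*, a chemokine, had 438, 597, 772 and 647 CPM against 3.85, 17.6, 43.2, 10.2 and 9.18 CPM (log2 5.09 ± 0.53, edgeR adjusted p = 0.000327). *Hsd11b1*, which regenerates active glucocorticoid, had 412, 235, 299 and 232 CPM against 49.1, 26.4, 13.7, 20.4 and 22.9 CPM (log2 3.43 ± 0.35, edgeR adjusted p = 3.71e-05).

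Of the 17 genes tested in the *Col15a1* and *Penk* list, 7 were called higher in nipple and 0 in TEB, with a median log2 of 1.96. The others were *Gdf10*, given above, *Vcam1*, a leukocyte adhesion molecule (418, 107, 494 and 622 CPM against 4.59 to 50.9 CPM, log2 4.21, edgeR adjusted p = 0.00985), *Icam1* (84.2 to 221 against 4.59 to 57.7 CPM, log2 2.38, 0.0115, and 0.0848 without N23) and *F3*, tissue factor. *F3* had 385 to 484 against 91.4 to 291 CPM (log2 1.09, edgeR adjusted p = 0.042) and lost its call without any nipple fragment or T32 or T34 (up to 0.134). *Col15a1* itself, a basement membrane zone collagen, had 776, 582, 581 and 573 CPM in nipple and 4.81, 335, 383, 319 and 399 CPM in TEB. T31 stood far below the others, and although the groups did not overlap the gene was not called (log2 1.13 ± 0.83, edgeR adjusted p = 0.635), except without T31 (0.0286).

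The *Pi16* and *Dpp4* list depended on T42. *Pi16*, a secreted peptidase inhibitor, had 189, 81.5, 148 and 224 CPM in nipple fibroblasts and 2635, 1984, 1882, 1779 and 0 CPM in TEB fibroblasts. T31 to T34 were each far above every nipple fragment while T42 had 0 UMIs (log2 −3.37 ± 1.26, edgeR adjusted p = 0.282, and −3.70 with 5.24e-06 without T42; chromosome 17, 29317680 to 29330593). *Dpp4*, a surface peptidase, had 0.968, 15.4, 0 and 40.2 CPM in nipple and 358, 402, 246, 231 and 0 CPM in TEB (log2 −4.15 ± 1.48, edgeR adjusted p = 0.254, and −4.50 with 0.0498 without T42; chromosome 2, 62330073 to 62412231). *Fndc1* had 36.8 to 109 CPM in nipple against 745, 872, 510, 462 and 25.2 CPM in TEB (0.133, and 1.29e-05 without T42), and *Anxa3* 26.2 to 153 against 1015, 688, 610, 387 and 39.0 CPM (0.174, and 0.0208).

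In all, 3 of 19 tested genes of this list were called higher in TEB and 0 in nipple, *Wnt2*, *Sema3c* and *Limch1* (median log2 −2.34). Without T42 the count was 18 of 19 higher in TEB (median log2 −2.53), beside 238 of all 7756 genes (3.07%). The gene not called was *Cmah* (edgeR adjusted p = 0.211). The members of both lists were chosen with earlier results of these data known, so the counts of calls in them are a description. *Sema3c*, a secreted semaphorin, had 32, 15.4, 29.0 and 35.5 CPM in nipple and 326, 312, 210, 207 and 20.6 CPM in TEB, where T42 lay among the nipple values (log2 −2.94, edgeR adjusted p = 0.0218, 2.03e-06 without T42, and up to 0.123 without any 1 of the nipple fragments). *Limch1* had 6.36 CPM in N23 alone and 70.2, 54.8, 47.4, 44.1 and 2.29 CPM in TEB (edgeR adjusted p = 0.0352, lost without N21, N22 or N24, up to 0.104).

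**Figure D4:**
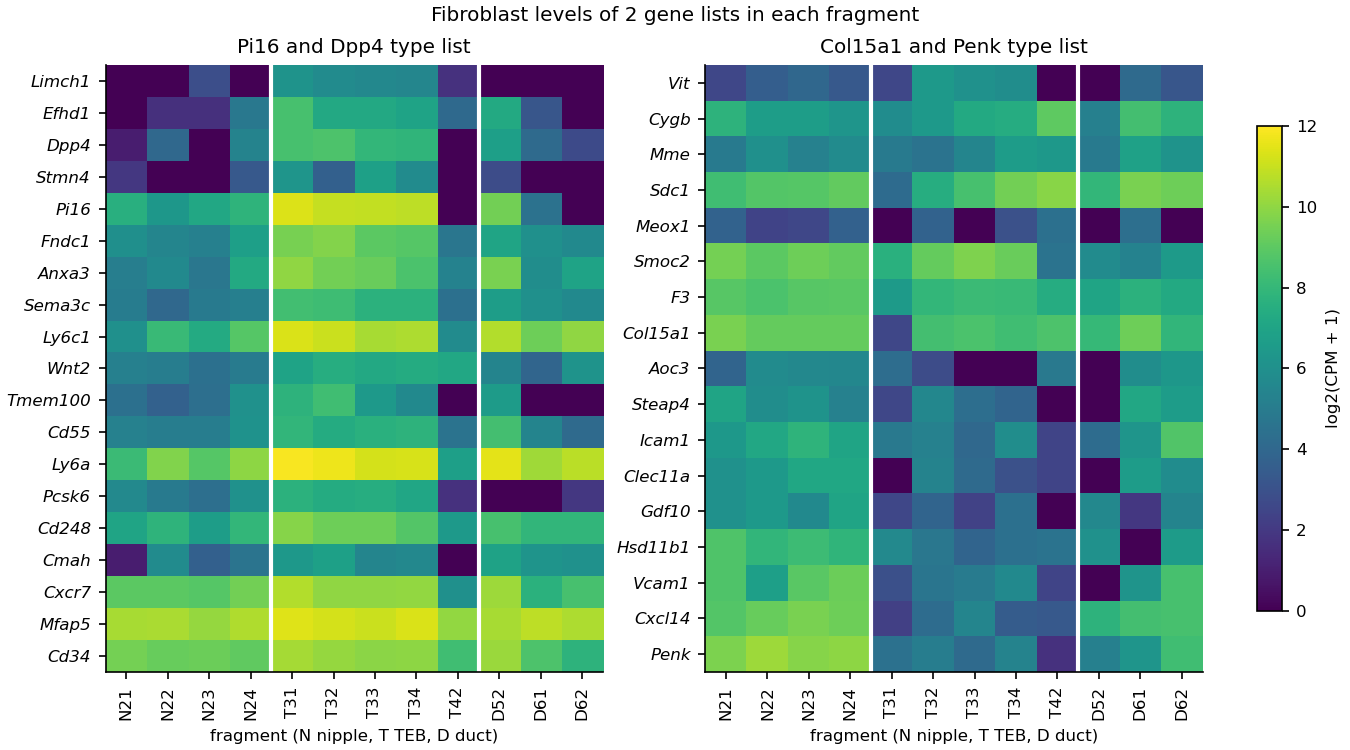
Colour gives log2(CPM + 1) of the 19 tested genes of the *Pi16* and *Dpp4* list and the 17 of the *Col15a1* and *Penk* list (rows) in the fibroblast sums of the 4 nipple, 5 TEB and 3 duct fragments (columns). T31 to T34 are high in the first list, T42 is low in it, and nipple fragments are high in the second list.

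Single cells were compared after thinning each to 5000 UMIs, below which 0 fibroblasts lay. *Penk* was detected in 92 of 121 nipple and 6 of 92 TEB fibroblasts, or 74.6% ± 13.6 (SD over 4 fragments) against 6.17% ± 5.25 (5 fragments; two-sided exact permutation p = 0.0159, 0.0794 after Benjamini-Hochberg adjustment over 5 genes). *Col15a1* was detected in 88 against 25 cells, 72.9% ± 6.71 against 32.9% ± 24.5 (exact p = 0.0317, adjusted 0.0794). *Pi16* was detected in 32.1, 12.1, 22.9 and 24% of the cells of the nipple fragments and 95.2, 76.9, 62.5, 53.3 and 0% of those of the TEB fragments (exact p = 0.111, adjusted 0.139). *Dpp4* was detected in 0, 9.09, 0 and 12.0% against 76.2, 69.2, 41.7, 40.0 and 0% (exact p = 0.0794, adjusted 0.132). T31 to T34 lay above all nipple fragments for both genes and T42 had no positive cell among its 6 (a count of 0 there allows a share of up to 50% of cells with a UMI, for counting error only). Without T42 the exact p of each of these 4 genes was 0.0286, the smallest that 4 against 4 fragments allow, and 0.0357 after adjustment.

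As a background, basal cells of the nipple and TEB fragments had thinned shares of 2.0 and 13.6% for *Pi16*, 0 and 0% for *Dpp4*, 4.41 and 5.56% for *Col15a1* and 3.72 and 4.20% for *Penk*, so that *Penk* in TEB fibroblasts was close to the background. Without thinning the fibroblast shares were 46.8 and 63.5% for *Pi16*, 8.17 and 63.5% for *Dpp4*, 92.7 and 47.3% for *Col15a1* and 90.03 and 17.0% for *Penk*, beside unthinned basal shares of 7.86 and 42.9%, 0 and 6.22%, 13.8 and 18.4%, and 23.1 and 6.81% for the same genes in that order. *Mki67*, a proliferation marker, was detected in 0 of 121 thinned nipple fibroblasts and in 2 of 92 TEB fibroblasts (exact p = 1.0, adjusted 1.0). The count of 0 allows a share of up to 2.48% of cells with a UMI at this thinned depth, for counting error only, and sets no limit on cells that express the gene. Unthinned, its shares were 1.79 and 4.07%, with a UMI in 7.14% of the cells of N21.

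The programs were next counted within each cell, as a description. A nipple fibroblast had UMIs for a median of 4, 4, 4 and 5 genes of the *Pi16* and *Dpp4* list in the 4 fragments, and a TEB fibroblast for 14, 13, 10.5, 11 and 3.5. For the *Col15a1* and *Penk* list the medians were 5, 7, 7 and 7 in nipple and 1, 1.5, 1.5, 3 and 4.5 in TEB. More genes of the first list than of the second were detected in 16 of 121 nipple and 65 of 92 TEB fibroblasts, fewer in 93 and 20, and equal numbers in 12 and 7. The TEB fibroblasts fell into cells with many and cells with few genes of the first list. With a limit of 10 genes, chosen after the counts were seen, 61 of 92 TEB fibroblasts lay at or above it, 20 of 21 in T31, 20 of 26 in T32, 13 of 24 in T33, 8 of 15 in T34 and 0 of 6 in T42, and 1 of 121 nipple fibroblasts (in N24). Just under the limit, with 8 or 9 genes, lay 1 TEB cell.

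**Figure D5:**
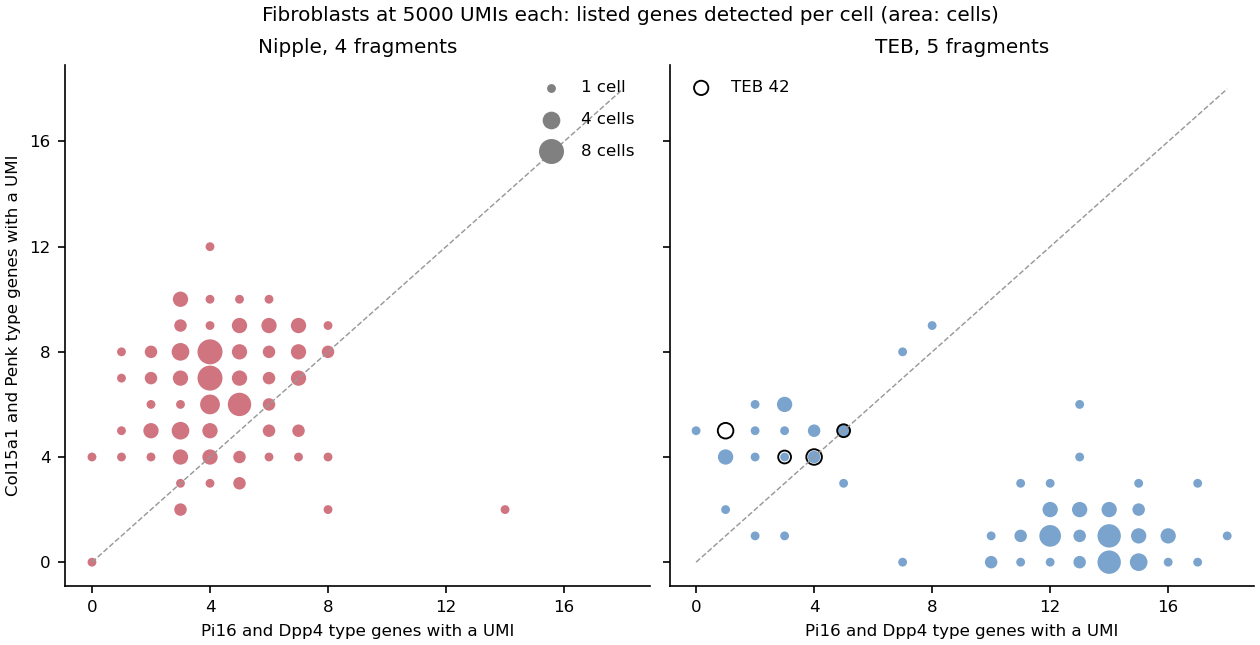
Each circle stands for fibroblasts thinned to 5000 UMIs, placed by the number of genes with a UMI in the *Pi16* and *Dpp4* list (x axis, genes per cell) and the *Col15a1* and *Penk* list (y axis), with area for the number of cells and a panel for each location; open circles are cells of T42. Nipple cells gather at few genes of the first and several of the second list, and TEB cells form a group at 10 or more genes of the first list and another near the nipple cells, which holds all cells of T42.

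The 31 TEB fibroblasts under the limit allowed a comparison with nipple fibroblasts that were likewise under it, given as the median CPM over 4 fragments, without TMM scaling and with no test. Only fragments with at least 5 cells of a group entered. These were T31 to T34 for TEB cells over the limit. For TEB cells under it they were T32, T33, T34 and T42, as T31 held 1 such cell. Some TEB genes were as high in TEB cells under the limit as in those over it, although from partly different fragments. *Wnt2* had 152 CPM in TEB cells over the limit, 159 in TEB cells under it and 24.8 in nipple cells under it. *Wnt2* is itself in the list that set the limit. *Ptgis* had 272, 359 and 55.8 CPM, *Foxp1* 112, 109 and 22.8 CPM, and *Sox9* 85.6, 98.9 and 4.82 CPM in the same order. The median of *Prrx1* (279, 122 and 42.9 CPM) was lower under the limit and still above nipple. Its fragments overlapped, with 224 to 367 CPM over the limit, 68.9 to 245 CPM under it and 16.3 to 84.6 CPM in nipple. Others were high only over the limit, namely *Sema3c* (378, 9.17 and 23.2 CPM), *Igfbp5* (685, 22.6 and 13.7 CPM), *Fndc1* (897, 11.6 and 48.9 CPM), *Ebf2* (134, 3.78 and 0 CPM) and *Chrdl1* (111, 14.3 and 2.49 CPM), where the first gene and *Fndc1* are in the list that set the limit.

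Genes higher in all nipple than in all TEB sums, of which *Crabp1* and *Col15a1* were not called, divided in a like manner. *Crabp1* had 0 CPM in TEB cells over the limit, 594 in those under it and 1284 in nipple cells, and *Col15a1*, of the second list, had 1.91, 763 and 553 CPM. *Penk* (20.9, 30.1 and 909 CPM), *Mfap4* (3.92, 16.3 and 455 CPM), *Ramp3* (0, 3.35 and 298 CPM) and *Fam180a* (0, 0 and 98.3 CPM) were low in both groups of TEB cells. *Lgals3* (235, 451 and 1260 CPM), *Bgn* (50.6, 233 and 1170 CPM), *Mmp3* (28.0, 127 and 1765 CPM) and *Tbx3* (3.76, 40.8 and 277 CPM) lay between. For *Mmp3* the TEB fragments overlapped, with 19.6 to 39.3 CPM over the limit and 2.48 to 202 CPM under it.

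Of 22 chemokine and cytokine genes tested, 2 were called, *Cxcl14* and *Cxcl12*, both higher in nipple fibroblasts (median log2 −0.75). *Cxcl12*, the ligand of Cxcr4, had 365, 632, 651 and 436 CPM against 90.4, 323, 267, 180 and 147 CPM (log2 1.36, edgeR adjusted p = 0.0276, lost without N22, N23 or T34, up to 0.11). *Ccl2*, a monocyte attractant, had 163 to 1143 CPM in nipple and 379 to 3431 CPM in TEB, which overlapped (edgeR adjusted p = 0.344). In the complement list 1 of 11 tested was called, higher in nipple (median log2 0.04). *C3*, the central component of complement, had 18.4, 143, 124 and 242 CPM in nipple and 2219, 2025, 1389, 1440 and 170 CPM in TEB, where T42 again lay among the nipple fragments (log2 −3.46, edgeR adjusted p = 0.122, and 0.0265 without T42).

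Guidance genes had 3 calls of 19 tested, *Cxcl12* and *Epha3* higher in nipple and *Sema3c* higher in TEB (median log2 0.64). *Epha3*, an ephrin receptor, had 83.3, 33, 67.2 and 86.0 CPM against 5.77, 2.94, 15.8, 3.40 and 0 CPM (log2 3.43, edgeR adjusted p = 0.00962). In the integrin list *Itgbl1*, an integrin beta-like protein, was the 1 call of 10 tested, higher in nipple (edgeR adjusted p = 0.0185, lost without N21, N23, N24 or T33, up to 0.0758).

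Of 18 DNA replication and mitosis genes tested, *Tubb5*, a beta tubulin, was called higher in TEB (226 to 270 against 260 to 734 CPM, log2 −1.12, edgeR adjusted p = 0.0238, lost without any nipple fragment or T31 or T34, up to 0.104). Of 28 immediate early and stress genes, *Ier3* (391 to 559 against 64.2 to 233 CPM, log2 1.64, edgeR adjusted p = 0.00491) and *Junb* (log2 1.23, 0.0167, lost without N21, N23, N24 or T33, up to 0.0943) were called higher in nipple, with a list median of −0.04. Other wells would give 158 of the 546 TEB and 177 of the 2018 nipple UMIs of *Ier3*. Of 28 secretory pathway genes, *Tmed3* was called higher in nipple (log2 0.81, edgeR adjusted p = 0.0196, lost without N21, N22, N23 or T32, up to 0.0924) and *Sdf2l1* higher in TEB (log2 −1.70, 0.0428, lost without N21, N22, N24 or any of T31 to T34, up to 0.122). None of 19 sterol and fatty acid synthesis genes was called by edgeR, with 1 higher in nipple and 3 higher in TEB at an unadjusted p under 0.05 and 0 called by DESeq2; *Fdps* and *Scd2* had the smallest p (edgeR adjusted p = 0.183 and 0.235).

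Contractile genes, a sign of myofibroblasts or of smooth muscle RNA, had 0 calls by edgeR of 10 tested (1 at an unadjusted p under 0.05, higher in nipple, and 0 by DESeq2). The rule itself used 2 of the 16 genes listed, *Acta2* and *Mylk*, so their levels were partly set by the choice of cells. *Smtn* had 60.6 to 71.0 CPM in nipple and 2.29 to 47.5 CPM in TEB fibroblasts (edgeR adjusted p = 0.19), and *Flna* 128 to 218 against 166 to 452 CPM (0.41).

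Markers of other cell types were measured in the same fibroblast sums. The rule itself used 3 of the 21 keratinocyte and basal, 10 of the 25 luminal (*Aldh1a3* included), 4 of the 15 myeloid, 4 of the 13 endothelial, 1 of the 13 pericyte and smooth muscle and 1 of the 10 mast cell and lymphocyte genes listed, so part of these levels was set by the choice of cells. The summed keratinocyte and basal list had 261 to 377 CPM in nipple and 118 to 356 CPM in TEB, with 3 members at 0. *Krt14* and *Krt17*, basal markers of the rule, were the members past the threshold, and *Krt14* had 274 nipple UMIs with 415 expected from other wells and *Krt17* 249 with 318 expected. The luminal list had 704 to 1315 against 927 to 1442 CPM, and 0 of its 15 tested genes were called by edgeR (2 at an unadjusted p under 0.05, higher in TEB, and 0 by DESeq2), *Aldh1a3* and *Csn3* having the smallest p (edgeR adjusted p = 0.3 and 0.317). The myeloid list had 93.0 to 171 against 18.4 to 102 CPM with 0 of 3 tested called by edgeR (1 at an unadjusted p under 0.05, higher in nipple, and 0 by DESeq2), *Cd74* (0.281) and *Cd14* (0.736) having the smallest adjusted p. The Schwann cell list had 307 to 374 against 305 to 986 CPM with 0 of 4 tested called by edgeR (1 at an unadjusted p under 0.05, higher in TEB, and 0 by DESeq2), led by *Mbp* (0.286) and *S100b* (0.503). The mast cell and lymphocyte list had 0 to 55.1 against 0 to 50.5 CPM, and none of its genes was tested.

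The pericyte and smooth muscle list had 454 to 830 CPM in nipple and 140 to 2131 CPM in TEB, the highest in T42, with 0 of 4 tested called by edgeR (2 at an unadjusted p under 0.05, higher in nipple, and 0 by DESeq2), led by *Abcc9* (edgeR adjusted p = 0.245) and *Pdgfrb* (0.329). The endothelial list had 120 to 198 against 43.6 to 211 CPM, and 1 of 3 tested was called, *Tek*, an angiopoietin receptor (0, 0, 0 and 5.61 CPM in nipple, 57.7, 107, 36.9, 37.3 and 0 CPM in TEB; edgeR adjusted p = 0.0488, lost without N21, N22 or N23, up to 0.165, and 0.00107 without T42). The call was also lost with DESeq2 and with the duct fragments in the edgeR fit. *Pecam1* (0.201 CPM over all fibroblasts) is an endothelial marker of the rule, so its level was set by the choice of cells. The part of these markers in the results above was not tested.

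Whether a difference was unlike that in the epithelium of the same fragments was tested in 1 model of both cell classes with a class by location term. The term does not test whether a difference was shared. Against basal cells, 299 of 8755 genes (3.42%) had a difference in fibroblasts unlike that in basal cells, among them 59 of the 244 fibroblast calls that could be tested, 38 higher in nipple and 21 higher in TEB fibroblasts. Against ER+ luminal cells it was 144 of 9900 genes (1.45%) and 54 of 255 fibroblast calls, 44 higher in nipple and 10 higher in TEB. Many fibroblast calls were also called in the epithelium. In basal cells alone, 50 of the 146 fibroblast calls tested there were called in the same direction and 16 in the opposite one. Over all genes tested in basal cells, 939 of 5854 (16.0%) were called. In ER+ luminal cells alone it was 30 and 9 of 135 fibroblast calls, beside 310 of all 6953 genes (4.46%). Basal cells also held RNA of genes high in fibroblasts, such as 138 CPM of *Col1a2*. Unthinned, *Pi16* had a UMI in a mean of 42.9% of TEB and 7.86% of nipple basal cells, and *Penk* in 6.81 and 23.1%. The part of fibroblast RNA from other wells in the calls of epithelial cells was not tested.

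*Lgals3* had 2411 ± 469 CPM in ER+ luminal cells of nipple and 2472 ± 472 CPM in those of TEB fragments, beside 1368 ± 67.7 and 322 ± 79.4 CPM in fibroblasts on the scale of that model (SD, n = 4 and 5). The difference between the classes was a log2 of 2.16 (edgeR adjusted p = 5.32e-06). *Tbx3* had 73.0 ± 38.9 and 62.8 ± 22.5 CPM in ER+ luminal cells, against 281 ± 91.6 and 19.8 ± 12.6 CPM in fibroblasts (log2 3.83, edgeR adjusted p = 0.00522). *Sox9* went in opposite directions in fibroblasts and basal cells, with 299 ± 127 CPM in nipple and 113 ± 51 CPM in TEB basal cells and 6.34 ± 4.58 and 87.4 ± 51.8 CPM in fibroblasts (log2 −5.07, edgeR adjusted p = 1.46e-05). *Col7a1* had 89.8 ± 14.8 and 93.0 ± 39.3 CPM in basal cells, against 306 ± 68.9 and 13.1 ± 16.5 CPM in fibroblasts (log2 5.16, edgeR adjusted p = 0.000277). For *Mfap4* and *Penk* the basal terms were not called (edgeR adjusted p = 0.935 and 0.184), and basal cells held at most 7.24 and 13.7 CPM of them on average.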

How the data were processed

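Cells of 16 nipple, duct and TEB fragments were sorted into plates and their 3′ transcript ends sequenced by SMART-seq with UMIs and added ERCC spike-ins. Per the study's methods, the authors trimmed reads with Trim Galore, took UMIs with UMI-tools, kept unique STAR alignments to mm10, counted them with featureCounts and deposited raw UMI counts per gene and cell, with 17721 gene rows and 67 spike-in rows (0.758% of UMIs). Software versions are not given in the sources used here. The file holds no mitochondrial rows, so a planned mitochondrial share was not computed.

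The study's limits were applied (ERCC up to 5%, UMIs from 5000 to 120000, genes from 200 to 6000). Counts were log-normalised to 10000, scaled per gene, and each cell took the class of the highest mean z-score. No doublet caller was run. Class sums per fragment (at least 5 cells; totals of 4718037 UMIs in nipple and 3712648 in TEB) were fitted with edgeR 4.0.16 in R 4.3.3 (TMM, filterByExpr, robust quasi-likelihood, location alone), with Benjamini-Hochberg adjustment over all genes tested and a threshold of 0.05. The SE of a log2 difference is its size divided by the square root of the quasi-likelihood F, not an estimate given by the fit. CPM are TMM-scaled unless said otherwise. DESeq2 1.42.0 was an alternative. Shares of cells were compared by two-sided exact permutation tests over fragments (scipy 1.17.1), and the class by location test used fragment as a term.

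A fold against 0 UMIs is a bound that puts 3 UMIs in that location's sums. Against 1 to 3 UMIs the pooled rates were divided and given an exact 95% interval. Both cover counting error only. To estimate RNA from other wells, the CPM of luminal and myeloid markers in a fibroblast was divided by their CPM in the fragment's pooled cells, and the median over fibroblasts taken. Genes named are the 12 of largest difference in each direction (called, at least 50 CPM, no overlap, not in the rule) and up to 4 called members of each gene list, or the 2 of smallest p where none was called. Some genes that this rule names are not reported here. Other genes named were chosen after their values were seen. The members, lists and tests were chosen with earlier results of these data known. Positions are from GENCODE M21 on GRCm38.

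On simulated data with 8029 genes, edgeR found 82.6% of changes of log2 2 and 13.2% of changes of log2 1, with 1.92% false calls, and made 0 calls where no gene was changed. The class by location test found 33% of changes of log2 2 with basal (8329 genes) and 31.5% with ER+ luminal cells (9581 genes). Its false calls were 4.35% and 1.56%, and it made 1 and 0 calls where no gene was changed. The simulation gave all genes the same dispersion and all fragments of a class the same mean profile apart from the set changes, with no fragment like T42. These rates therefore need not hold for the measured data. The alternatives were another normalisation, DESeq2, no filter, other cell limits, equal cells or UMIs, ducts in the fit, other TEB sets and leaving out each fragment.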

Additional observations from a re-analysis of the deposited data

Results flagged for a closer look

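A fragment stood far from the others of its location, by Dixon's ratio, in 34 of 267 groups of fibroblast values. The limits used mark about 1 in 20 groups of normally distributed values. Many of these values are sparse counts, where a few UMIs in 1 fragment beside 0 in the others set the ratio to 1. The rate by chance is therefore not known here, and the number of flags is a description. T42 was the fragment in 2 of them, with 1709 CPM of *Acta2* (23.1 to 387 in the other TEB fragments) and 32.1 CPM of *Hgf* (0 in the others).

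Among genes higher in nipple, T32 alone held TEB counts of *Aqp1* (2.94 CPM) and *Dlk1* (1.96 CPM), and T31 alone held those of *C1qtnf3* (4.81 CPM), *Gdnf* (3.85 CPM) and *Irx3* (2.89 CPM). T34 had 40.7 CPM of *Col7a1* (0 to 8.43 in the other TEB fragments) and 309 CPM of *Bgn* (66.4 to 109), and T33 had 129 CPM of *Ptn* (10.8 to 40.4). In *Col15a1*, which was not called, T31 lay far below the other TEB fragments (4.81 against 319 to 399 CPM). N21 lay above the other nipple fragments in it (776 against 573 to 582 CPM). N21 was also high in *Igf1*, not called either (433 against 204 to 225 CPM), and N22 was low in *F3* (385 against 476 to 484 CPM).

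Among genes higher in TEB, T31 had 361 CPM of *Prrx1* (189 to 228 in the others) and T33 had 60.1 CPM of *En1* (6.74 to 19.6). Single nipple fragments held *Ebf2* (1.94 CPM in N21), *Limch1* (6.36 CPM in N23), *En1* (2.80 CPM in N24) and *Tek* (5.61 CPM in N24), where the other 3 held 0. N24 had 37.4 CPM of *Slco3a1* (11.3 to 13.2 in the other nipple fragments).

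Of the other genes not called, *Esr1* was high in T33 (98.1 against 10.2 to 19.6 CPM). Markers of other cells stood out as *Krt10* (84.1 CPM) and *S100b* (19.6 CPM) in N24, *Mbp* (12.1 CPM) in N22, and *Acta2* (176 against 44.1 to 60.1 CPM) and *Rgs5* (91.0 against 0 to 2.20 CPM) in N21. *Pecam1* was found in N24 alone among nipple fragments (1.87 CPM), and *Ptprc* in N23 (17.7 CPM) and T31 (0.962 CPM) alone. *Mki67* had 20.3 CPM in N21 (0 in the other nipple fragments) and 148 CPM in T31 (0 to 3.40 in the others), and T31 alone had *Mki67* cells in TEB at equal depth (9.52% of its fibroblasts). N23 had the highest share of RNA from other wells in nipple (8.05% against 5.2 to 5.57%).

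The nipple minus TEB difference of fibroblasts also differed from that of epithelial cells in a class by location term of edgeR. Against basal cells the log2 differences between classes were 8.82 for *Fam180a* (edgeR adjusted p = 0.00204), 13.17 for *Tnfrsf19* (7.02e-05), 5.16 for *Col7a1* (0.000277), 1.08 for *Lgals3* (0.0433), −8.37 for *Ebf2* (0.0192), −8.18 for *Slco3a1* (4.29e-05), −5.63 for *Prss23* (0.00874) and −5.07 for *Sox9* (1.46e-05). Those of *Fam180a* and *Tnfrsf19*, with 0 UMIs in TEB fibroblasts, depend on the prior count. Against ER+ luminal cells they were 4.77 for *Col7a1* (edgeR adjusted p = 0.0123), 3.83 for *Tbx3* (0.00522), 2.16 for *Lgals3* (5.32e-06), −3.02 for *Sox9* (0.00212) and −2.86 for *Prss23* (1.28e-05). *Prss23* had 446 ± 127 CPM in nipple and 51.5 ± 34.5 CPM in TEB basal cells, the reverse of its order in fibroblasts.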

How the results depend on the processing

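No gene picked by the naming rule reversed under any of 22 alternatives of the nipple against TEB comparison in which it was tested. Some could not be tested in all, *Ebf2* and *Tek* for instance not in 6 of them. The direction of other called genes was not compared. Of 255 called genes (181 higher in nipple, 74 in TEB), DESeq2 called 250 among 465 in all, 210 of them higher in TEB. Without T42, which is also what TEB fragments numbered 3 only or at least 10 cells per fragment leave, 526 genes were called, 288 and 238. With 6 cells drawn from each fragment, 3756 genes could be tested and 8 were called, all higher in nipple and 0 in TEB by edgeR (181 and 164 at an unadjusted p under 0.05). Thinning each cell to 5000 UMIs gave 117 genes higher in TEB and no filter on low counts gave 128. Leaving out each fragment in turn gave 137 to 526 calls, 103 to 288 higher in nipple and 26 to 238 higher in TEB, with the fewest without N23 (137 and 103) and without N21 (26). The share higher in nipple was 71.0% of the calls, 54.8% by DESeq2 or without T42, 53.4% with thinning and 81.7% without N21. The causes were not tested.

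The class by location calls went from 299 to 469 (basal) and from 144 to 255 (ER+ luminal) without a filter, and to 88 (ER+ luminal) with thinning; leaving out each fragment gave 207 to 424 and 102 to 184. Differences in the share of cells, in percentage points, ranged over left-out fragments from −49.2 to −25.4 for *Pi16*, −51.5 to −32.5 for *Dpp4*, 31.7 to 48.3 for *Col15a1*, 63.8 to 74.6 for *Penk* and −2.38 to 0 for *Mki67*, and passed the threshold without T42 (−49.2, −51.5, 48.3 and 66.9, adjusted exact p = 0.0357). Of 81 called genes named or listed here, 27 lost their call without some 1 fragment, and 19 of the 24 genes of largest difference kept theirs under every alternative in which they were tested other than equal cells. *Fam180a* (edgeR adjusted p = 0.0666) and *Chrdl1* (0.0921) lost theirs only with duct fragments in the fit. No paired analysis was possible because nipple and TEB fragments share no label number. Few fibroblasts limit T42 (6 cells), and T34 had the fewest UMIs (297625).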

Other observations

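Fibroblasts of fragments outside the comparison were few and are given as values. T43, the TEB fragment with 4 fibroblasts, held 489 CPM of *Pi16* (in 1 of its 4 cells) and 71.6 CPM of *Dpp4*, without TMM scaling. It held 390 CPM of *Wnt2* and 509 CPM of *Ptgis*, and also 231 CPM of *Col15a1*, 557 CPM of *Crabp1*, 270 CPM of *Bgn* and 922 CPM of *Lgals3*. *Penk*, *Mfap4*, *Mmp3*, *Ramp3*, *Aqp1* and *Ebf2* had 0 UMIs in it.

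Duct fibroblasts of D52, D61 and D62 (5, 11 and 10 cells) had 294, 818 and 329 CPM of *Mfap4*, above all TEB fragments. Some other genes called higher in nipple also lay above all TEB fragments in these sums. *Lgals3* had 1121, 1560 and 1845 CPM (1290 to 1402 in nipple) and *Bgn* 546, 1010 and 1183 CPM (1032 to 1331). *Mmp3* had 474, 1180 and 1264 CPM (1517 to 2373). Whether these genes differ between duct and nipple was not tested. Others were low in the duct sums, *Ramp3* with 0, 2.79 and 2.79 CPM and *Prkcb* with 0, 0 and 2.79 CPM. *Fam180a* had 138 CPM in D52 and 0 UMIs in D61 and D62. *Has1* had 1313, 670 and 734 CPM in them, above all nipple and TEB fragments, and *Sfrp2* had 1361, 1111 and 413 CPM. *Ly6a*, a surface protein of many fibroblast precursors, had 2944, 1247 and 1705 CPM in the duct sums, 289, 845, 458 and 989 CPM in nipple and 3821, 3358, 2424, 2509 and 108 CPM in TEB (edgeR adjusted p for nipple against TEB = 0.391, and 0.0217 without T42).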
